A study of Homo sapiens with 2 samples.

Results

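The aldehyde dehydrogenases described here are 10 genes of the human ALDH family, ALDH1A1, ALDH1A2, ALDH1A3, ALDH1B1, ALDH2, ALDH3A1, ALDH3A2, ALDH3B1, ALDH3B2 and ALDH7A1. They were chosen by name, and every non-control probe that the array lists under one of these names was taken, which gave 15 probes of 41000 and 10 of the 30484 gene names and accessions on the array. ALDH1A2, ALDH1A3, ALDH1B1, ALDH2 and ALDH3B1 had 2 probes each and the other 5 genes had 1, and each of the 15 was spotted once per array. Total RNA was measured on 2 one-colour arrays, 1 of parental SAS cells and 1 of eSAS cells. SAS is an established line of squamous carcinoma cells from a human tongue tumour, kept in serum-containing medium, and it received no selection. The eSAS cells are a population derived from SAS through 5 rounds in which large spheroids grown in non-adherent culture were trapped on a removable mesh (Spheroid Catch), dispersed and grown again; by the study's account both RNAs came from cells in log growth. The array comparison asked how gene expression differed between the selected and the parental cells.

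Aldehyde dehydrogenases oxidise aldehydes to carboxylic acids with NAD or NADP. ALDH1A1, ALDH1A2 and ALDH1A3 make retinoic acid from retinaldehyde, the step that supplies the ligand of the retinoic acid receptors, and their activity lies behind the fluorescent ALDH assays used to sort tumour cells with stem-like behaviour. ALDH2 and ALDH1B1 are mitochondrial enzymes that clear acetaldehyde, ALDH3 enzymes act on medium- and long-chain or lipid-derived aldehydes, and ALDH7A1 acts in lysine breakdown.

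Among the 10 chosen genes, no probe that was measured in both SAS and eSAS cells differed by 2-fold or more between them. The largest difference at a strong signal was in ALDH2, at which 1 probe was 1.55-fold lower in eSAS cells. The other ALDH2 probe was 1.19-fold higher, on a spot that the scanner software marked as non-uniform on the SAS array. The ALDH1A3 and ALDH7A1 probes with signals above 1000 differed by 1.13- and 1.03-fold. ALDH1A1, the family member most often used as a stem-cell marker, was not well above background on either array. At least 1.5-fold higher values in eSAS cells were seen at 3 of 11 counted probes, all dim, for ALDH1A2, ALDH1A3 and ALDH3B2. Values lower by as much were seen at 2, the ALDH2 probe and a dim ALDH3A1 probe. Of all probes, 4.43% were higher and 6.12% lower by as much. Among all probes with a mean signal under 100, the shares were 11.7% and 12.2%. The ALDH1A2 and ALDH3A1 probes were counted only through the array on which they were high, so they had to differ. There was 1 array per cell population, so no test between SAS and eSAS was possible and every value below describes these 2 hybridisations.

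The promoters of the 3 retinaldehyde dehydrogenases are printed because these genes catalyse the same reaction and yet were detected to different extents here. Each line holds the 250 bases before a RefSeq transcription start in GRCh38.p14, read 5′ to 3′ on the strand of the gene, with every CG dinucleotide in capitals. The ALDH1A1 stretch is chr9:72953054-72953303 on the minus strand, that of ALDH1A2 is chr15:58065712-58065961 on the minus strand, and that of ALDH1A3 is chr15:100879581-100879830 on the plus strand.
ALDH1A1: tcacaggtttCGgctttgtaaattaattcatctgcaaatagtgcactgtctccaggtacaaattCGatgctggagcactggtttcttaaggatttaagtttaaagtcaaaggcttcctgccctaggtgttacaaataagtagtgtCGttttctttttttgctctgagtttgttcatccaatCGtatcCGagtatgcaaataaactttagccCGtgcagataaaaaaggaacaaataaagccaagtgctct
ALDH1A2: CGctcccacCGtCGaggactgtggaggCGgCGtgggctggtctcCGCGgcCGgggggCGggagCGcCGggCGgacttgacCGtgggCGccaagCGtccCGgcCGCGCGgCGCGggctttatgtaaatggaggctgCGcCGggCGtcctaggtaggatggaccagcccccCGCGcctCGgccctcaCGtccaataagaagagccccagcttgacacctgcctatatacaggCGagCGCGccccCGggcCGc
ALDH1A3: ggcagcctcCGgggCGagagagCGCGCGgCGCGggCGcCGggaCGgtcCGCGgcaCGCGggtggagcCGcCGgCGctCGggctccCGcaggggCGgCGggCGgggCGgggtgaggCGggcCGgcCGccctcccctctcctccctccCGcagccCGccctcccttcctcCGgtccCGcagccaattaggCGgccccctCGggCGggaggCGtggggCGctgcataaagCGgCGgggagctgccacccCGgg
The ALDH1A1 stretch held 6 CG dinucleotides, the ALDH1A2 stretch 33 and the ALDH1A3 stretch 38. The whole windows of 300 bases, which run 50 bases past the start, held 7, 41 and 46, and the counts that follow are of such windows. Their GC content was 40.3% for ALDH1A1, 74.0% for ALDH1A2 and 81.7% for ALDH1A3. A further RefSeq start of ALDH1A2 had 1 CG in its window. Windows were found for 7 of the 10 genes, and those of ALDH1B1 and ALDH7A1 held 27 and 17 CG dinucleotides. ALDH3A2 had a pair of windows with 27 and 12, and ALDH3B1, with a probe measured in both cells, a pair with 12 and 4. With the window of most CG taken for each gene, the median was 28 (interquartile range 20 to 36) over 8278 genes with a probe well above background on both arrays, and 9 (3 to 25) over 2584 genes without a probe above background on an array. The letters CCAAT, searched on both strands, occurred in all 3 windows printed and in 34.6% of 35116 windows, and TATAAA occurred in none of the 3 and in 11.5% of windows. These counts describe the letters, and methylation was not measured.

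The values that follow are the scanner software's processed signal, an intensity in arbitrary units from which background had been subtracted, given with the software's own error for that spot. Ratios were taken after dividing by the 75th percentile of each array, which was 1242 for SAS and 1196 for eSAS, and a log2 ratio above 0 is higher in eSAS. By the software's criterion, 69.4% of the 43376 probe spots were well above background for SAS and 67.5% for eSAS, and 0 were saturated. The log2 ratio of spots carrying the same probe varied with an SD of 0.184 at signals under 100 (22 probes), 0.071 from 100 to 1000 (51 probes) and 0.042 above 1000 (138 probes). Both errors are technical and leave out the spread between cultures. As a check of the cell type, all 9 squamous markers on the array, keratins, SFN, CDH1 and desmosomal genes among them, were well above background in both cells, with a summed scaled signal of 75.7 in SAS and 53.4 in eSAS. Of 13 markers of fibroblasts, leukocytes and endothelium, 4 were above background in SAS and 3 in eSAS, with summed scaled signals of 0.340 and 0.363. CD14 gave 215 in SAS and 233 in eSAS and a VWF probe 86.0 and 77.1, COL1A1 and CDH5 were above background in SAS alone, and LUM, at 29.6, in eSAS alone, at least 2.40-fold higher. The other 8, PTPRC, CD3E, PECAM1, DCN and COL3A1 among them, were not well above background on an array. Of the 10 squamous marker probes, 5 were lower in eSAS by 1.5-fold or more and 0 were higher by as much, and KRT14 went from 8749 to 88.3 at one probe and from 3136 to 1286 at the other; their part in the ALDH values was not tested.

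ALDH1A3 was the one retinaldehyde dehydrogenase with a probe well above background in both cells. Its probe A_23_P205959, at chr15:99274026-99274085 of hg18, gave 7985 ± 798 in SAS and 6822 ± 682 in eSAS. The log2 ratio was -0.17 ± 0.20, so the difference lay within the software's error. It was larger than the SD of 0.042 between spots of the same probe at signals above 1000. Both errors leave out the spread between cultures. The other ALDH1A3 probe, A_24_P917280, was designed on a different transcript record and lies 35006 bases upstream, at chr15:99239020-99239079. It rested on a dim signal of 30.1 ± 4.10 in SAS and 51.0 ± 6.07 in eSAS, a 1.76-fold higher value in eSAS with a log2 ratio of 0.82 ± 0.26. The probes of this gene gave different ratios, and the dim one lost its 1.5-fold difference without background correction, at log2 ratios of 0.42 with mean and 0.53 with median pixels.

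The ALDH1A1 probe, at chr9:74705956-74706015, gave 2.79 ± 2.78 in SAS and 3.29 ± 3.28 in eSAS, signals as large as their error, and no fold is given. One ALDH1A2 probe, A_23_P99956 at chr15:56041514-56041573, was likewise not well above background, with 3.14 ± 3.13 and 5.20 ± 3.68. The other ALDH1A2 probe, A_24_P73577 at chr15:56033824-56033883, gave 2.70 ± 2.69 in SAS and 19.8 ± 3.75 in eSAS, where it was above background. Against the lowest signal measured above background on the SAS array, 12.8, the eSAS value was at least 1.60-fold higher, a bound whose log2 was 0.68 and which fell to 0.32 with mean pixels when background was not corrected. The 2 probes of ALDH1A2 lie 7690 bases apart, and the difference was seen at 1 of them.

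**Figure D1:**
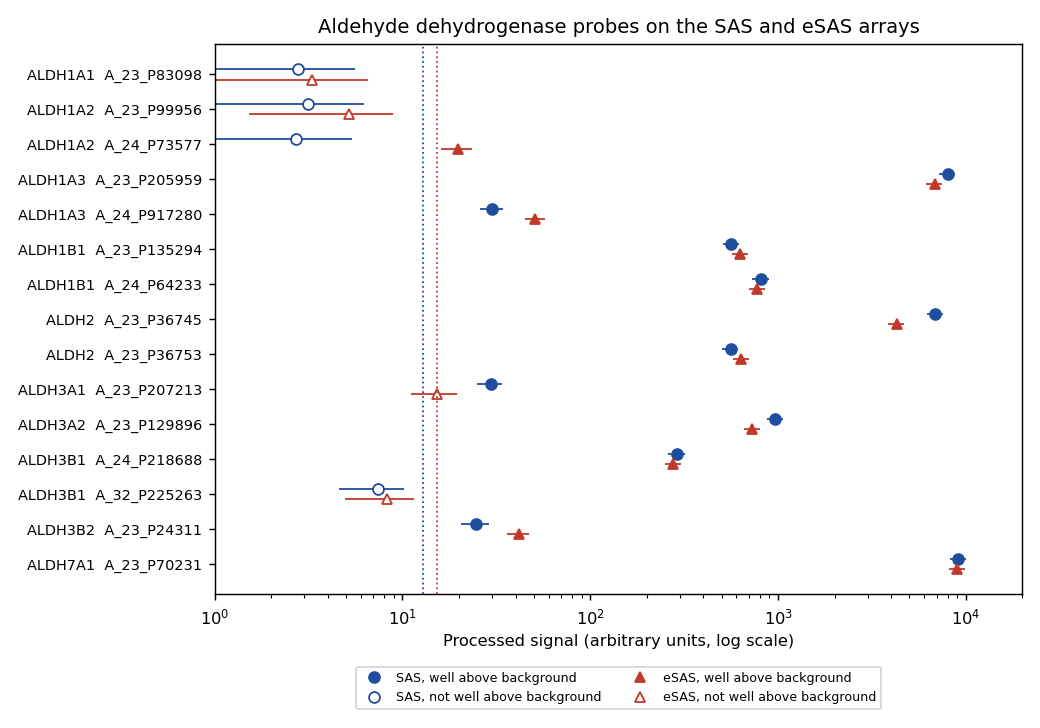
Processed signal of the 15 ALDH probes (log axis, arbitrary units) on the SAS array (circles) and the eSAS array (triangles), with bars for the software's error and open symbols where a spot was not well above background. Dotted lines mark the lowest signal above background on each array, 12.8 and 15.2, and bars that leave the plot on the left reach near 0. The symbols of most measured genes overlap or nearly so, while the ALDH2 probe A_23_P36745 is lower in eSAS at 4279 than in SAS at 6882.

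ALDH2, the mitochondrial enzyme that oxidises acetaldehyde from ethanol, was lower in eSAS cells at 1 of its 2 probes. A_23_P36745, at chr12:110732074-110732133, gave 6882 ± 688 in SAS and 4279 ± 428 in eSAS, 1.55-fold lower, with a log2 ratio of -0.63 ± 0.20. The 8 measured spots nearest to it had a median log2 ratio of -0.03, ranging from -0.32 to 0.25, and less their median the ratio was -0.60. A_23_P36753, whose start lies 243 bases away at chr12:110731831-110731890, gave 559 ± 56.3 in SAS and 638 ± 63.9 in eSAS, a log2 ratio of 0.25 ± 0.20. The software marked this spot as non-uniform on the SAS array, as it did 194 spots there and 9 on the other array. Its pixel SD divided by the mean was 0.735 in SAS and 0.148 in eSAS, and its 8 neighbours had a median log2 ratio of 0.45 with a highest value of 2.14. Less these neighbours the ratio was -0.21. The probes thus agreed in direction only after that subtraction, which was chosen after the data were seen, and the part of the uneven spot in their difference was not tested. Over 13 alternative settings the log2 ratio of A_23_P36753 ran from -0.21 to 1.22, and in 3 of them it was beyond 1.5-fold higher in eSAS.

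ALDH1B1, the second mitochondrial acetaldehyde enzyme, was measured by 2 probes 559 bases apart. A_23_P135294, at chr9:38387141-38387200, gave 563 ± 56.3 in SAS and 628 ± 62.9 in eSAS, and A_24_P64233, at chr9:38387700-38387759, gave 809 ± 81.0 and 775 ± 77.6. The log2 ratios were 0.21 ± 0.20 and -0.01 ± 0.20. One lay just beyond and one within the software's error of 0. ALDH7A1, which oxidises the aminoadipate semialdehyde formed from lysine, had a probe spread over 1364 bases of hg18 at chr5:125908599-125909962. It gave 9099 ± 910 in SAS and 8983 ± 898 in eSAS, a log2 ratio of 0.04 ± 0.20.

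The ALDH3 genes form 2 neighbouring pairs, ALDH3A1 with ALDH3A2 on chromosome 17 and ALDH3B1 with ALDH3B2 on chromosome 11, and the nearest probes within them lie 64 and 357 kb apart. ALDH3A2 is the fatty aldehyde dehydrogenase of the endoplasmic reticulum. Its probe, at chr17:19520167-19520226, gave 966 ± 96.6 in SAS and 730 ± 73.1 in eSAS, 1.27-fold lower with a log2 ratio of -0.35 ± 0.20. ALDH3A1, a cytosolic enzyme abundant in cornea and induced in many epithelia, had a probe spanning 675 bases at chr17:19584335-19585009. It gave 29.5 ± 4.46 in SAS and 15.3 ± 4.15 in eSAS, where it was not well above background, so that it was at least 1.86-fold lower in eSAS. Its own eSAS signal lay just above the lowest signal measured above background there, 15.2, so this bound equals the ratio of the measured signals. The ALDH3A2 ratio was on the other side of 0 under normexp fitted on all spots, at 0.02 with mean and 0.06 with median pixels. In both of these settings the median log2 ratio of all probes was 0.53, so ALDH3A2 stayed below that median. ALDH3A1 was lower at a dim signal, where its bound fell to log2 ratios of -0.17 with mean and -0.05 with median pixels when background was not corrected.

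For ALDH3B1, which oxidises lipid-derived aldehydes, the probe A_24_P218688 at chr11:67552241-67552300 gave 289 ± 29.2 in SAS and 277 ± 28.1 in eSAS, a log2 ratio of -0.01 ± 0.21. The other ALDH3B1 probe, A_32_P225263 at chr11:67543736-67543795, gave 7.37 ± 2.79 and 8.25 ± 3.30, not well above background on either array. ALDH3B2, the closest relative of ALDH3B1, had 1 probe at chr11:67187086-67187145. It gave 24.6 ± 4.10 in SAS and 41.5 ± 5.64 in eSAS, 1.75-fold higher with a log2 ratio of 0.81 ± 0.31. Without background correction this ratio was 0.35 with mean and 0.29 with median pixels. The nearest spots had a median log2 ratio of 0.15 at the ALDH3B2 probe and of 0.11 at the dim ALDH1A3 probe. Single neighbours ranged from -0.28 to 0.90 and from -1.21 to 1.11, so both probe ratios lay within the range of their neighbours. The dim ALDH3A1 and ALDH1A2 bounds, -0.90 and 0.68, lay outside the ranges of theirs, -0.38 to 0.14 and -0.26 to 0.34. Those bounds come from probes above background on 1 array alone, which had to differ.

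**Figure D2:**
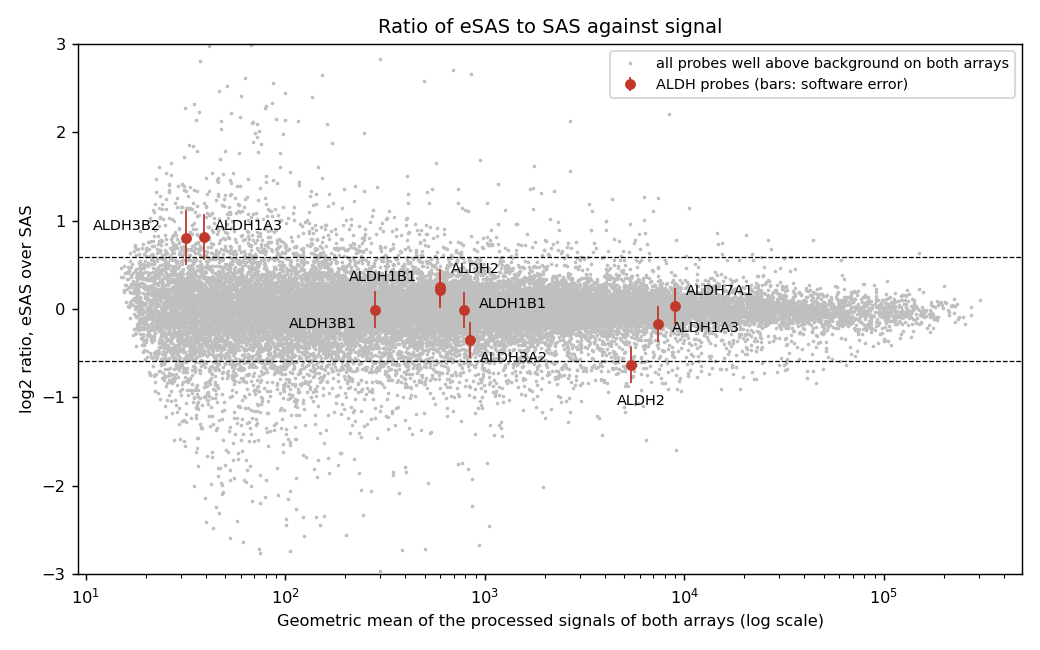
Log2 ratio of eSAS to SAS against the geometric mean of both processed signals (log axis) for 26659 probes well above background on both arrays (grey, 13 beyond the axis limits of -3 and 3) and the 10 such ALDH probes (red, bars for the software's error), with dashed lines at 1.5-fold. The ALDH3B2 probe and the dim ALDH1A3 probe lie above the upper line in the wide part of the cloud, and the brighter ALDH2 probe lies below the lower line where the cloud is narrow.

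Of the 15 probes, 10 were well above background on both arrays, 1 in SAS alone, 1 in eSAS alone and 3 in neither. Of the 12 measured on an array, the marked ALDH2 spot was left out of counts. Among the remaining 11, 3 were at least 1.5-fold higher in eSAS, where 4.43% of all 28439 probes were, and 2 were at least 1.5-fold lower, where 6.12% of all probes were. At 2-fold, with lower bounds taken at their value, 0 of the 11 were higher and 0 were lower, against 1.83% and 1.97% of all probes. The ALDH1A2 and ALDH3A1 probes entered these counts only through the array on which they were high, so they had to differ, and the counts are no support for a change of the family.

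The spread of ratios widened as the signal fell. Among all probes with a mean signal under 100, 23.9% lay at or beyond 1.5-fold in either direction, among those from 100 to 1000 it was 7.78% and above 1000 it was 3.70%. The 4 ALDH probes in the dimmest class were those of ALDH1A2, ALDH1A3, ALDH3A1 and ALDH3B2. Those of ALDH1A2 and ALDH3A1 entered the class only through the array on which they were high, so they had to differ. All 4 lay beyond 1.5-fold. In the middle class it was 0 of 4, and among the brightest it was 1 of 3, the ALDH2 probe. Over the 9 unmarked ALDH probes measured on both arrays, the median log2 ratio was -0.01 (SD 0.48), and over all 26659 such probes it was 0.00 (SD 0.36). Of the 10 ALDH probes measured on both arrays, the marked one included, 4 had a log2 ratio within the software's error of 0 and 6 beyond it.

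**Figure D3:**
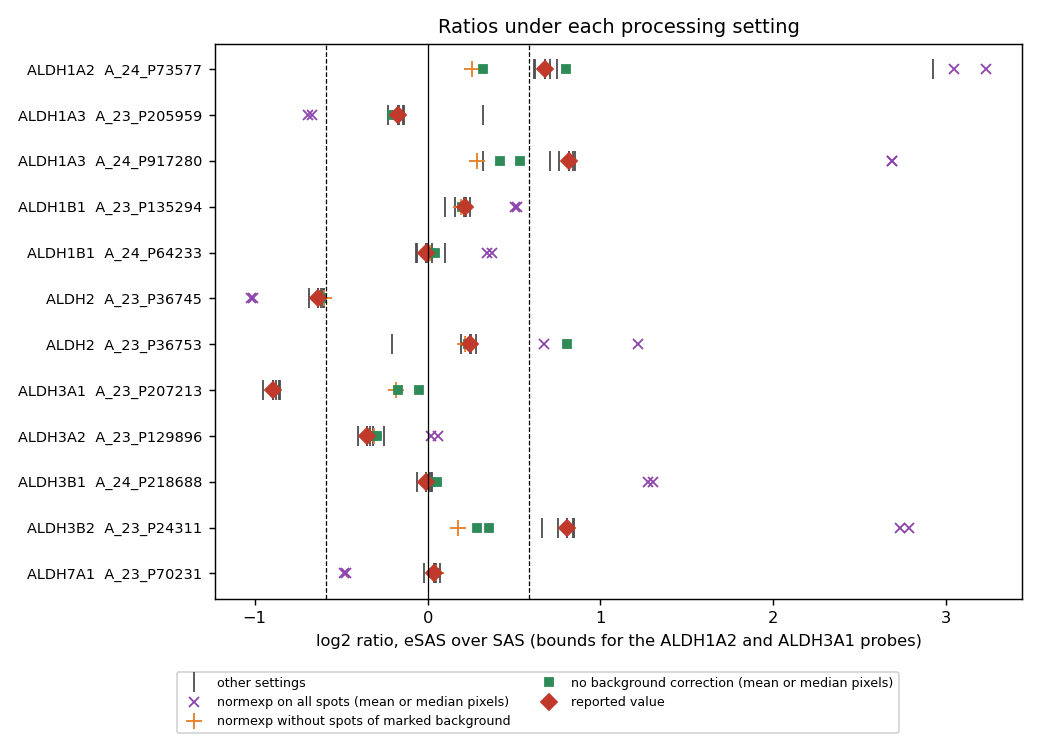
Log2 ratio of eSAS to SAS for the 12 ALDH probes measured on an array, as reported (diamonds) and under each other processing setting (symbols in the key), with dashed lines at 1.5-fold; the ALDH1A2 and ALDH3A1 values rest on a spot not well above background on 1 array and are given as lower bounds, which for ALDH3A1 equals the measured ratio as reported. The ALDH2 probe A_23_P36745 lies beyond the lower line under every setting run, while the dim ALDH1A2, ALDH1A3, ALDH3A1 and ALDH3B2 probes lie inside the lines under normexp fitted without marked background and without background correction, except ALDH1A2 with median pixels and no correction at 0.80.

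Other members of the family were read from a list of 9 ALDH genes on the array, of which 7 had a probe on both arrays. Of these 7 genes, 1 was at least 1.5-fold higher and 0 were lower, and their median log2 ratio was 0.00, where 3.19% of all 19467 genes were higher, 4.99% lower and the median was 0.00. The gene was ALDH5A1, the succinic semialdehyde dehydrogenase of GABA breakdown. Its 3 probes went from 55.0 in SAS to 161 in eSAS, from 62.8 to 177 and from 160 to 390, which were 3.04-, 2.93- and 2.53-fold higher. The probes agreed in direction and size. ALDH16A1, a family member without known catalytic activity in mammals, had a log2 ratio of 0.66 at A_23_P50472, a spot marked on the SAS array, and of 0.08 at its other probe.

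In the retinoid list, genes that supply, bind, sense or degrade retinoids, 20 of 29 genes were measured on both arrays, with a median log2 ratio of -0.05, 2 genes at least 1.5-fold higher and 2 lower. RDH10, which makes the retinaldehyde that ALDH1A enzymes consume, was higher in eSAS at both probes, from 384 to 637 and from 850 to 1593, with log2 ratios of 0.78 and 0.96. DHRS3, which reduces retinaldehyde back to retinol, had a log2 ratio of -0.02. The retinol carrier RBP4 went from 40.4 to a value not well above background, at least 2.56-fold lower. STRA6, the receptor for that carrier, went from 41.8 to 22.8, a log2 ratio of -0.82. RDH16, a retinol dehydrogenase, went from 86.6 to 21.1, a log2 ratio of -1.98.

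Downstream of the ALDH1A step, CRABP2, which delivers retinoic acid to its receptors, went from 3704 in SAS to 2412 in eSAS, a log2 ratio of -0.56. The retinoic acid receptor RARG had log2 ratios of 0.01 and -0.15 at its 2 probes. CYP26A1, which degrades retinoic acid, was dim at 23.3 and 28.1, a log2 ratio of 0.33. The 2 probes of CYP26B1, an enzyme of the same kind, went opposite ways, from 267 to 73.4 with a log2 ratio of -1.81 and from 19.6 to 42.2 with a log2 ratio of 1.16. RARRES1, a retinoic acid responsive gene, went from 163 to 249, a log2 ratio of 0.66.

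Among alcohol dehydrogenases, aldo-keto reductases and other enzymes that form or clear aldehydes, 12 of 19 genes were measured on both arrays. Their median log2 ratio was -0.14, with 0 genes at least 1.5-fold higher and 1 lower. That gene was AKR1B10, a reductase of retinaldehyde and other aldehydes, whose probes went from 104 to 18.0, 5.57-fold lower, and from 69.8 to 15.7, not well above background, at least 4.28-fold lower with that signal taken as it stood. ADH6 was at least 2.06-fold lower at 1 probe, from 32.5, and was not above background at the other. An AKR1C1 probe, A_24_P152968, was at least 1.54-fold higher, reaching 19.0 in eSAS, while another, A_24_P220947, was at least 1.39-fold lower from 22.0 in SAS. ADH5, the ubiquitous class III enzyme, had log2 ratios of -0.20, -0.27 and 0.09 at its 3 probes, AKR1C3 had -0.15, and ADH7, the retinol-oxidising enzyme of upper digestive epithelium, was not well above background.

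**Figure D4:**
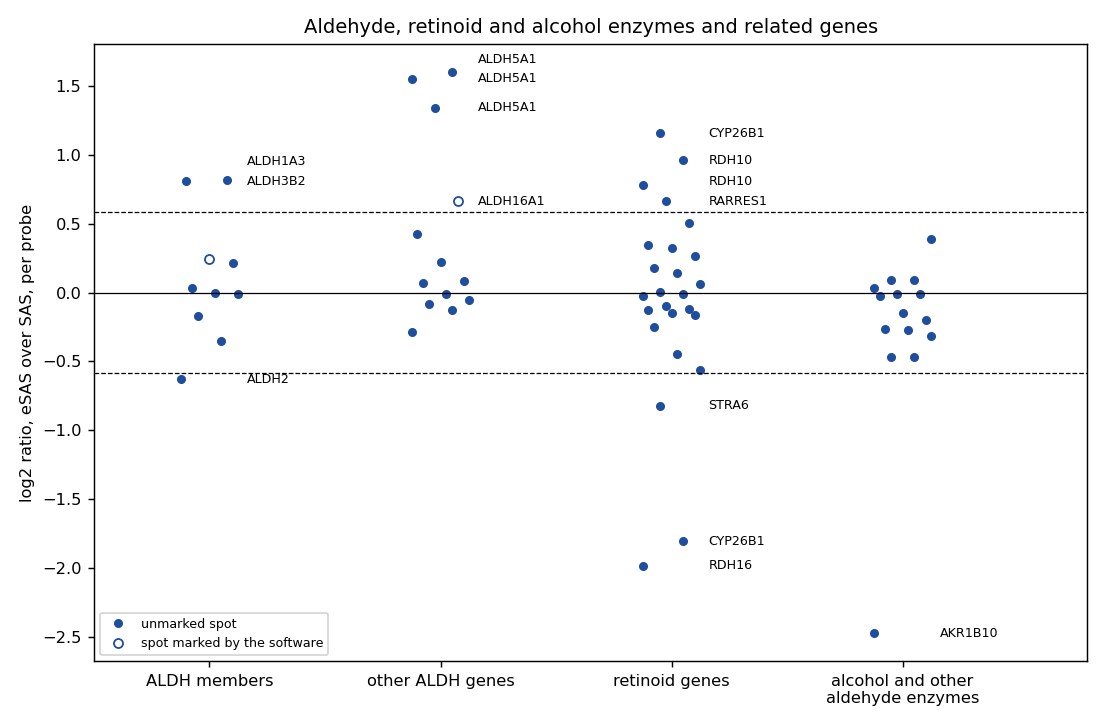
Log2 ratio of eSAS to SAS per probe for the ALDH members, the other ALDH genes, the retinoid genes and the alcohol and other aldehyde enzymes, for probes well above background on both arrays; open circles are spots the software marked, dashed lines lie at 1.5-fold and names are given beyond them. The 3 ALDH5A1 probes lie together above the ALDH members, RDH10 lies above the upper line at both probes, CYP26B1 lies on both sides, and the AKR1B10 probe is lowest at -2.48.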

How the data were processed

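Scanner output of 2 one-colour Agilent arrays (SAS and eSAS cells, 1 each) was analysed. The authors deposited linear intensity values from Agilent Feature Extraction 10.7.3.1, the version named in the submitters' processing notes: a processed signal with background subtracted and spatial trends removed, raw pixel values, local background, error estimates, software marks and a p-value for signal against background, which stands behind the mark for well above background. The deposited series table was equal to the processed signal. Scaling between arrays was not given in the sources used here.

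The log2 of the processed signal minus each array's 75th percentile was used, and spots of a probe were averaged. A probe not well above background on 1 array was given the array's lowest signal above background where its own was lower and kept its own signal otherwise, and the fold is written as a lower bound in both cases. Marked spots were left out of counts. Gene values averaged probes well above background on both arrays. The ratio of each ALDH spot was set beside the median of its 8 nearest measured spots. The software error of a log2 ratio combines the errors of both spots. Probes are placed in hg18 as the array files state, and 12 of 15 ALDH probes matched RefSeq by accession; promoter sequences are from RefSeq, GRCh38.p14.

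The members, lists and rules were chosen with earlier results of these data known. Named were all members, listed genes with a probe past 1.5-fold, and RDH10, DHRS3, RARG, CYP26A1, CYP26B1, CRABP2, ADH5, ADH7 and AKR1C3; A_24_P220947 of AKR1C1 and the cell type markers are given beside them. No test was made, as each population had 1 array, and the number of arrays limits the precision. Alternatives were no scaling, median centring, quantile normalization, uncorrected background, normexp (offset 50), median pixels, the series table, other filters, marked spots kept and gene means, and 2 were added later. R 4.3.3, limma 3.58.1 and Python 3.11.15 were used, and the counting was tested on simulated data.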

Additional observations from a re-analysis of the deposited data

How the results depend on the processing

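No paired analysis was possible because each cell population had a single array, and the slide could not be used as a block since both arrays were on 1 slide. Probes with signals under 100 lie close to the background, so their ratios depend on its correction. The lower value of ALDH2 probe A_23_P36745 stayed beyond 1.5-fold in 14 of 14 alternatives (log2 ratio -1.02 to -0.60). The higher values stayed beyond 1.5-fold in 11 of 14 for ALDH3B2 (0.18 to 2.79), 10 of 14 for ALDH1A3 probe A_24_P917280 (0.29 to 2.69) and 10 of 12 for ALDH1A2 (0.26 to 3.23), and the lower value of ALDH3A1 in 7 of 10 (-0.95 to -0.05). These tallies include settings that could not change the ratio of an unmarked probe measured on both arrays. Such settings were the filters, the series table and marked spots kept. The gene mean of ALDH2 rested on A_23_P36745 alone, as the spot of its other probe was marked. Under normexp on all spots the bound for ALDH3A1 fell under 1 and is not given. The ALDH2, ALDH3B2 and ALDH1A3 probes, measured on both arrays, kept their direction in every alternative. For ALDH1A2 and ALDH3A1 a bound on the other side of 0 was not given, so their bounds could not show a change of direction. Subtracting neighbouring spots and fitting normexp without the 26 spots of marked local background were chosen after seeing the data. Normexp on all spots moved the median log2 ratio of all probes from 0.00 to 0.53, so that 86.1% of probes past 1.5-fold were higher in eSAS (86.3% with median pixels), against 42.0% as reported. The cause of the changes was not tested unless the setting itself removes or adds probes.

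Of the ALDH probes, those 1.5-fold higher (3 as reported) numbered 0 without background correction, 1 with median pixels and no correction, 0 under normexp without marked background and 1 as genes. Those 1.5-fold lower (2) numbered 1 in each of these settings and 1 among probes above background on both arrays. At 2-fold, 4 were higher and 1 lower under normexp with mean pixels, 4 and 1 with median pixels, and 1 was higher with no filter or bound. Of all probes, those 1.5-fold higher (1261) numbered 13503 under normexp, 13494 with median pixels, 404 without marked background, 549 without correction, 649 with median pixels and no correction, 824 above background on both arrays, 2614 with no filter and 621 as genes. Those 1.5-fold lower (1740) numbered 797 and 807 without correction (mean and median pixels), 3486 with no filter, 806 under normexp without marked background and 972 as genes. Those 2-fold higher (520) numbered 11264 and 11251 under normexp, 86 without marked background, 125 and 166 without correction, 250 on both arrays, 1375 with no filter and 196 as genes. Those 2-fold lower (559) numbered 183 and 177, 156, 161 and 159, 335, 1536 and 266 in the same order. Relative to all genes, the median log2 ratio of the other ALDH genes (0.00) was -0.44 under normexp with mean and -0.44 with median pixels and -0.11 less neighbouring spots, that of the retinoid genes (-0.05) was 0.086 with no filter, and that of the alcohol and aldehyde enzymes (-0.14) was -0.72 and -0.73 under normexp.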
